A study of Mus musculus with 6 samples.

Results

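The genes described here carry the mouse name Zfp ("zinc finger protein") followed by a number, without Zfp36, Zfp36l1 and Zfp36l2, which encode RNA-binding proteins of another type. The array carried 248 probe sets for 170 such genes. A gene was kept if a probe set annotated to that symbol alone reached a signal of 100 on at least 1 of 6 arrays, and of several such probe sets the one with the highest mean signal stood for the gene. This gave 99 Zfp genes among the 7352 genes chosen in the same way. RNA came from bone marrow-derived macrophages of C57BL/6J mice, grown from non-adherent marrow cells in L929-conditioned medium, either wild type or lacking IκBβ, an inhibitor protein of NF-kB. The allele is not described in the labels. Cells were harvested before (0 h) or at 1 h and 5 h of exposure to LPS at 1 µg/ml (lipopolysaccharide, a bacterial cell wall component that activates Toll-like receptor 4). There was 1 array for each genotype and time, so the genotypes are the sole repeats of the LPS change. The family was singled out for its loss at 1 h and its recovery or further loss at 5 h in these same arrays. The LPS changes below are therefore a description, and the counts of genes that passed the test carry no independent weight.

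A C2H2 zinc finger is a short protein loop held by a zinc ion between cysteine and histidine residues, and tandem fingers read DNA or RNA. In mammals the largest subgroup carries a KRAB domain, which binds the co-repressor Trim28 (KAP1). Trim28 in turn brings the histone methyltransferase Setdb1, heterochromatin proteins and histone deacetylases to the bound site, and many KRAB zinc finger proteins silence retroelements in this way. Their genes lie in clusters that arose by tandem duplication. Other Zfp genes encode single-copy, conserved proteins that act in transcription, RNA processing, translation or ubiquitin and SUMO transfer.

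Promoters of genes at the 2 extremes of the 1 h change are shown first. That of Zfp955a is added beside Zfp472, with which it shares an element. Zfp709 and Zfp101 had deeper losses than Zfp955a, and their promoters are not shown. Zfp472 had the deepest loss at 1 h. Its sequence and that of Zfp955a share a CCAAT box followed by the letters AGAAGCA, with 1 free base between, and Zfp955b carries the same sequence as Zfp955a. Zfp688 had the next deepest loss, and its promoter held an ETS core (CCGGAAG) and a CRE core (TGACG, on the reverse strand) instead. Zfp281 and Zfp131 were the members that rose at 1 h. The sequences are RefSeq promoters of build GRCm38.p6, 300 bases each, from 250 bases before to 50 bases after the annotated start. They are written 5′ to 3′ on the gene's strand, with matches to the motifs searched in capitals (both strands).
Zfp472: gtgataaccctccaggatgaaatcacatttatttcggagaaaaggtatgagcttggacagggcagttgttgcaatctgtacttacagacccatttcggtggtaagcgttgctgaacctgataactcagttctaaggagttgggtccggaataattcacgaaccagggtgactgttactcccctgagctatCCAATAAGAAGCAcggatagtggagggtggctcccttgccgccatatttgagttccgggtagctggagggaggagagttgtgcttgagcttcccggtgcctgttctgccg
Zfp955a: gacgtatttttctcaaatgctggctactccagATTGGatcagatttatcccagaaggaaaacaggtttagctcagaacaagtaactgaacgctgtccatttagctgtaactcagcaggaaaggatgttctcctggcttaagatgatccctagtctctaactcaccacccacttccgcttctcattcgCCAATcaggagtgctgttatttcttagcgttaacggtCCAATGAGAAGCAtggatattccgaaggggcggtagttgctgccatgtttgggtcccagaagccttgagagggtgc
Zfp688: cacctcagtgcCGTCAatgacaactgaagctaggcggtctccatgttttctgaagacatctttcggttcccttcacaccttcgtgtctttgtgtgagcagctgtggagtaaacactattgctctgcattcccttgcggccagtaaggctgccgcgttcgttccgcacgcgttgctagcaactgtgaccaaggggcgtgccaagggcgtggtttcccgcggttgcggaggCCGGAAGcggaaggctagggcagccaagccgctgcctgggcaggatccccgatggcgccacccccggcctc
Zfp281: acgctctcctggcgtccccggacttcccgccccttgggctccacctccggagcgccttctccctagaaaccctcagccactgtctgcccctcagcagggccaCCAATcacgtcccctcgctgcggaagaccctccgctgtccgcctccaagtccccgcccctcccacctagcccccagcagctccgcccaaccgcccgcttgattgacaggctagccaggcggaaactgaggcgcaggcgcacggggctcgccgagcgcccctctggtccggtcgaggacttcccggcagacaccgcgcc
Zfp131: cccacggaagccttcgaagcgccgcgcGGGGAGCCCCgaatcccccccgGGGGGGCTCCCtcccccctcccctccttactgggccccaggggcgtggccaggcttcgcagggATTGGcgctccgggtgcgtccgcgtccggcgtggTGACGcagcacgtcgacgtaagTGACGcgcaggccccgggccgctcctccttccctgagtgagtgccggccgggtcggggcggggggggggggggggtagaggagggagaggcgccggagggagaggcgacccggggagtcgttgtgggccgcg
They lie at chr17:32965581-32965880 (plus strand) for Zfp472, chr17:33255096-33255395 (minus strand) for Zfp955a, chr7:127421985-127422284 (minus) for Zfp688, chr1:136624651-136624950 (plus) for Zfp281 and chr13:119790683-119790982 (minus) for Zfp131. The Zfp955b promoter at chr17:33289294-33289593 (plus strand) was identical to that of Zfp955a over all 300 bases. Zfp472 matched Zfp955a at 26.0% of positions when laid side by side without gaps. That sets the shared element out of register (base 191 against base 225), so it does not measure how alike these promoters are. The shared CCAAT element began 60 bases before the start in Zfp472 and 26 bases before it in Zfp955a and Zfp955b. This element was noticed in the sequences and then counted. It stood in 16 of 32851 RefSeq promoters, of 15 genes. The 3 Zfp genes among these were Zfp472, Zfp955a and Zfp955b, in which it was noticed, so their count carries no weight. The capitals in Zfp131 are 3 matches to the NF-kB site, of which 2 overlap, a CCAAT box on the reverse strand and 2 CRE cores (TGACG). The GC content of that window is 76.7%. A second RefSeq promoter of Zfp131, at chr13:119790409-119790708 (minus), is not shown and held 1 match to the NF-kB site. The capitals in Zfp281 are a CCAAT box.

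Signals are MAS5 intensities on a linear scale, already scaled by the authors to a common trimmed mean. The median over all probe sets nevertheless fell from 113.4 and 117 at 0 h (wild type, knockout) to 70.75 and 65.21 at 5 h. With it the median log2 change of the 7352 genes was −0.19 at 1 h and −0.62 at 5 h. Centring each array on its median moved these to −0.01 and 0.14, so changes of the Zfp genes are set beside or against the median of all genes. The library labels held for the deleted gene: Nfkbib, which encodes IκBβ, had signals of 477, 3330 and 5007 on the wild-type arrays and 30.5, 136 and 56.1 on those of the knockout. Sex-linked genes also separated the genotypes. Xist was at 52.1 to 80.4 in wild type and 2149 to 5634 in knockout, and the Y-linked Eif2s3y at 569.7 to 859.9 and 0.896 to 10.7. All 9 macrophage markers on the array exceeded 100, with summed signals of 90793 to 99014. Of 7 B-cell markers, 3 exceeded 100 (Ighm, Cd79b and Cd22). The list of 7, mostly Ighm, summed to 3771 and 3935 at 0 h, 2646 and 2873 at 1 h and 472 and 460 at 5 h, moving with LPS. Cd79b went from 119 and 111 at 0 h to 24.9 and 30.4 at 5 h, and Cd22 from 201 and 211 to 111 and 75.0. Cd79a, Ms4a1 and Pax5 stayed at or under 45.3. Neutrophil markers summed to 233 to 330 at 0 h and 1 h and to 734 and 1343 at 5 h, all but S100a8 under 100. No T or NK, fibroblast or mast cell marker reached 100, and 1 of 4 erythroid and 1 of 5 dendritic cell markers did. The part of other cells in the changes below was not tested. In such bulk RNA, fewer cells of a type and less RNA per cell cannot be told apart.

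After 1 h of LPS the signals of the Zfp genes moved mostly down, and by much the same amount in both genotypes. The median signal of the 99 members was 226 on the wild-type and 229 on the knockout 0 h array. It was 128 and 135 at 1 h, and 115 and 119 at 5 h. The number of members with a signal of at least 100 went from 87 and 93 at 0 h to 57 and 56 at 1 h and 61 and 53 at 5 h. In limma's fit over all genes, 43 of 99 members were lower at 1 h at an adjusted p under 0.05 and 2 were higher. Of all 7352 genes, 7.14% were lower and 5.89% higher. The median 1 h change of the members was −0.76, which is −0.57 relative to all genes. Their middle 80% ran from −1.92 to −0.08, against −0.64 to 0.46 for all genes. The sign was negative in both genotypes for 84 members and positive in both for 7. Of the 177 genes that passed the test and were at least 2-fold lower in both genotypes at 1 h, 31 were Zfp genes, or 17.5%, and these are 31.3% of the members. Members make up 1.35% of all genes. Most of the 31 reached a signal of 100 on 0 h arrays alone, which favours a loss after LPS. Without the test, 32 members were at least 2-fold lower in both genotypes (2.67% of all genes) and 1 at least 2-fold higher (4.03%). Among the 50 genes with the lowest 1 h change, 13 were Zfp genes. With 1 array left out the count of 43 became 14 without either 0 h array and 7 without either 1 h array, where 1.21%, 0.857%, 0.476% and 0.422% of all genes were lower (without wild-type 0 h, knockout 0 h, wild-type 1 h and knockout 1 h). With no filter on low signals it became 9, with 0.831% of all genes lower.

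**Figure D1:**
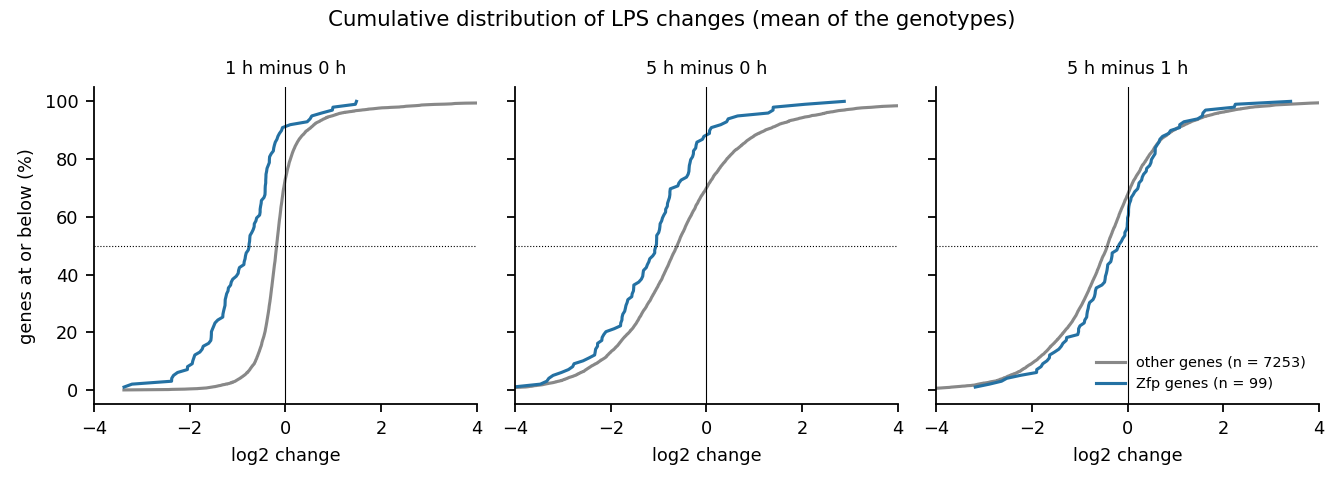
Cumulative share of genes (y axis, percent) at or below a given log2 change (x axis, mean of the genotypes, deposited scale) for the 99 Zfp genes (blue) and the 7253 other genes (grey), at 1 h against 0 h, 5 h against 0 h and 5 h against 1 h. The blue curve lies left of the grey one at 1 h (medians −0.76 for members and −0.19 for all genes) and at 5 h (−1.04 and −0.62), and right of it around the middle between 1 h and 5 h (−0.17 and −0.42). Centring the arrays turns the last pair of medians to 0.36 and 0.16.

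The 31 early losses of both genotypes were headed by Zfp472 and Zfp688. Zfp472 had signals of 304 and 383 at 0 h (wild type, knockout), 40.2 and 27.2 at 1 h and 43.0 and 22.1 at 5 h. Its log2 change was −3.37 (SE 0.33) at 1 h and −3.47 (SE 0.33) at 5 h. The genotypes did not overlap between 0 h and either LPS time, and the level stayed low. Zfp688 went from 163 and 173 at 0 h to 6.78 and 14.7 at 1 h and 6.34 and 14.5 at 5 h. The 4 LPS signals lie under the floor of 18.2 to which low signals were raised, so its change is a bound of −3.20 or lower at both times. Zfp709, which lies in a zinc finger cluster on chromosome 8, had 164 and 177 at 0 h, 34.0 and 31.6 at 1 h and 17.6 and 23.8 at 5 h. Its change was −2.38 (SE 0.15) at 1 h and −3.03 at 5 h, the wild-type 5 h value being at the floor. Zfp90 stood out by its level, with 477 and 511 at 0 h, 103 and 139 at 1 h and 144 and 170 at 5 h. Its change was −2.05 (SE 0.13) at 1 h and −1.66 (SE 0.13) at 5 h.

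The paralogs Zfp955a and Zfp955b, whose promoters are the identical pair above, moved alike. Zfp955a signals were 354 and 340 at 0 h, 69.3 and 68.3 at 1 h and 65.7 and 74.1 at 5 h. Zfp955b had 205 and 191, then 59.9 and 44.8, then 71.2 and 52.5. Their 1 h changes were −2.34 (SE 0.12) and −1.93 (SE 0.14), and at 5 h they were at −2.32 and −1.69. Transcripts of paralogs can cross-hybridise, so the pair may not be separate measurements. Their promoters were compared here and their transcripts were not. Zfp101, their neighbour on chromosome 17, had 72.6 and 139.8 at 0 h and 7.99 to 23.0 on the LPS arrays, a 1 h change of −2.37 or lower. Zfp958 (−2.25), Zfp810 (−2.04), Zfp61 (−1.95) and Zfp120 (−1.91) followed. Zfp120 and Zfp810 went lower still from 1 h to 5 h, with changes of −0.85 and −0.84, the latter a bound.

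The other early losses that passed the test over all arrays and were at least 2-fold lower in both genotypes ran from −1.89 (Zfp213) to −1.13 (Zfp280d). They include Zfp746 (−1.79), which encodes PARIS, a parkin substrate and repressor of PGC-1α, with signals of 391 and 436 at 0 h, 79.7 and 179.7 at 1 h and 146 and 186 at 5 h. Zfp467 (−1.55), a regulator of the choice between fat and bone fates in marrow stroma, had 199 and 185, then 79.8 and 53.9, then 106 and 95.0. Zfp410, whose product is known to activate the gene for the chromatin remodeller Chd4, had 448 and 411, then 163 and 202, then 291 and 394. For these 3 genes the 0 h signals lay above every LPS signal. The rest were Zfp790, Zfp623, Zfp444, Zfp53, Zfp24, Zfp84, Zfp329, Zfp942, Zfp764, Zfp87, Zfp322a, Zfp777, Zfp386, Zfp358 and Zfp160, at −1.74 to −1.14. The calls of Zfp101, Zfp213, Zfp329, Zfp358 and Zfp61 were lost with a lower floor (10th percentile of all signals), with limma's adjusted p at 0.0514 to 0.0983. Quantile normalization took limma's adjusted p of Zfp329, Zfp358, Zfp53, Zfp61 and Zfp942 to 0.0526 to 0.0798.

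Low signals and the entry threshold shape these counts. Of the 99 members, 28 (28.3%, against 3.75% of all genes) reached 100 on 0 h arrays alone, a rule that favours a loss after LPS. Of these 28, 26 were negative in both genotypes at 1 h and 22 were called. Another 4 (Zfp352, Zfp503, Zfp654 and Zfp948) reached it on LPS arrays alone, and 41 on all 6. Of the 71 members that reached 100 on an LPS array, 21 were lower and 2 higher at 1 h, with a median of −0.52. The 7076 genes of the same kind had 6.06% lower, 6.12% higher and a median of −0.18. Of the 74 members with a mean signal of at least 100, 29 were lower, with a median of −0.66, against 6.68% and −0.18 of all such genes. The 49 dimmer members had a median of −1.23 and the 50 brighter ones −0.51. Signal and change were correlated over the members (Pearson r of log2 mean signal with the 1 h change 0.50, n = 99, a description since low mean signals partly follow from the losses). The genes just inside the threshold were Zfp213 (highest signal 101), Zfp30 (104) and Zfp51 (107). Zfp30 entered through the knockout 0 h array alone, its other signals being 2.37 to 4.06. Just outside lay Zfp334 (92.4), Zfp825 (92.3) and Zfp109 (91.0). The 71 Zfp genes left out had a median highest signal of 41.0, and 12 of them never exceeded the floor.

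Courses were grouped on the mean of the genotypes, as a description. Early loss means at least 2-fold lower at 1 h, and it held 39 members (39.4%, against 3.9% of all genes), 34 of which passed the test. Of these 39, 5 recovered by at least 2-fold between 1 h and 5 h (0.476% of all genes did), 34 stayed within 2-fold of their 1 h level (2.67%) and 0 went further down by 2-fold (0.762%). These counts hold at the floor of 18.2, under which the size of a further loss cannot be read. Zfp61 went from 20.2 and 53.5 at 1 h to 4.23 and 4.32 at 5 h, and Zfp810 was at 12.7 and 13.8 at 5 h, so both are grouped on bounds. Of the 287 early losses in the whole table, 12.2% recovered, 68.3% stayed and 19.5% went further down. Late loss (less than 2-fold lower at 1 h, at least 2-fold lower at 5 h) held 25 members against 33.5% of all genes, and rise 6 against 13.3%. The remaining 29 moved less than 2-fold at both times, as did 49.3% of all genes. With median centring 34 members were early losses, of which 10 recovered, and with quantile normalization 34 and 11. The count of recoveries thus depended on the scale given to the 5 h arrays.

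**Figure D2:**
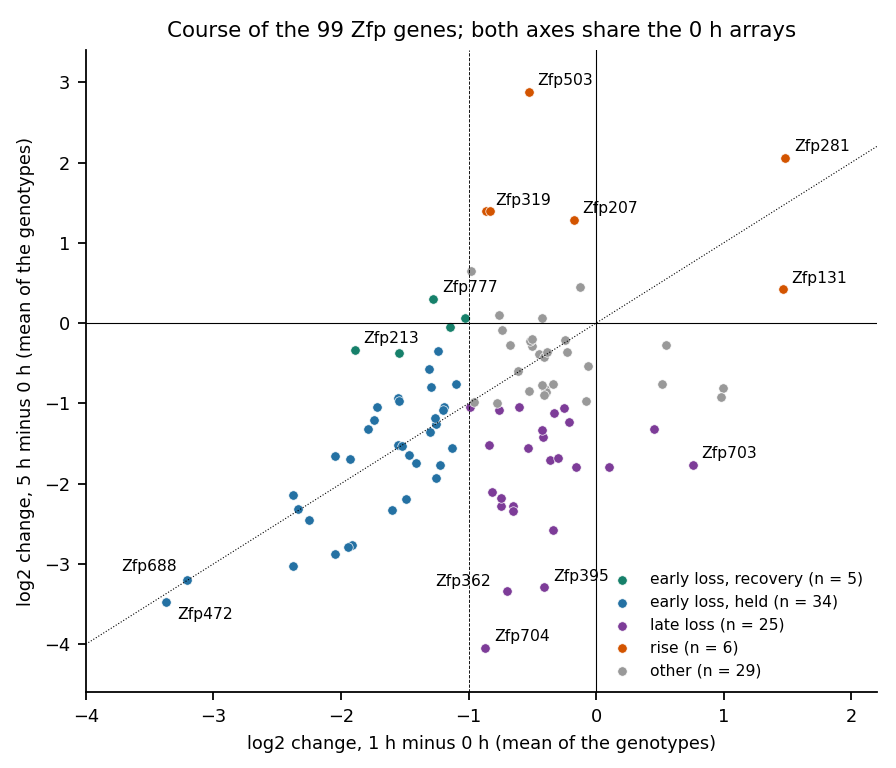
Log2 change at 5 h (y axis) against log2 change at 1 h (x axis), both against 0 h and as the mean of the genotypes, 1 point per Zfp gene, coloured by course. The axes share the 0 h arrays, which ties them together, so the slope of the cloud is not a result. The dotted diagonal marks equal change at 1 h and 5 h. The 5 recovering genes lie above it left of −1, and Zfp704, Zfp362 and Zfp395 lie far below it.

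The 5 members that were lost and recovered were Zfp24, Zfp35, Zfp160, Zfp213 and Zfp777. Zfp24 encodes a SCAN-domain zinc finger protein needed for myelination. Its signals were 807 and 736 at 0 h, 269 and 260 at 1 h and 599 and 597 at 5 h. The 1 h signals lay well below the rest in both genotypes. Its change from 1 h to 5 h was 1.18 (SE 0.10), which left it at −0.37 against 0 h. Of its other probe sets above 100, 1 was at −1.31 at 1 h and −0.10 at 5 h. The other was at −1.26 and −1.52, with 119 and 150 at 0 h, 48.0 and 64.8 at 1 h and 68.1 and 31.7 at 5 h, so the recovery was not seen on every probe set of Zfp24. Zfp777 had 199.8 and 221 at 0 h, 88.3 and 85.1 at 1 h and 279.8 and 238 at 5 h, so that both 5 h signals exceeded the 0 h ones. Zfp35, a neighbour of Zfp24 on chromosome 18, had 322 and 244, then 136 and 139, then 324 and 264. Zfp160 had 176 and 229, then 80.4 and 103, then 198 and 189. Zfp213 had 82.6 and 101, then 3.30 and 33.1, then 75.6 and 69.7. Its wild-type 1 h value was under the floor and its signals were the lowest of the 5. Zfp212, a neighbour of Zfp777 on chromosome 6, missed the 2-fold line at 1 h (−0.98, SE 0.12) and then exceeded its 0 h level. Its signals were 273 and 307, 154 and 141, and 444 and 467.

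At 5 h, 71 members were lower and 7 higher than at 0 h, beside 56.5% and 19.4% of all genes. The member median was −1.04, or −0.42 relative to all genes, and the relative value shrank to −0.14 under quantile normalization. With median centring 38 members were lower and 18 higher, beside 28.8% and 37.9% of all genes. From 1 h to 5 h, 35 members were lower and 18 higher, beside 47.7% and 18.7%. That median was −0.17, which is 0.25 above that of all genes, and with median centring 19 were lower and 42 higher, beside 25.6% and 36.1%. At the 2-fold line in both genotypes, 43 members were lower and 5 higher at 5 h (31.7% and 10.5% of all genes), and 18 lower and 8 higher from 1 h to 5 h (23.1% and 8.11%). Of the 10 deepest losses at 5 h, Zfp472, Zfp688, Zfp709, Zfp810, Zfp61 and Zfp120 were early losses, and Zfp704, Zfp362, Zfp395 and Zfp106 were late ones.

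Zfp704 and Zfp395 belong to one small subfamily, known from proteins that bind the promoters of the Huntington's disease gene and of the glucose transporter GLUT4. Zfp704 had 388 and 371 at 0 h, 207 and 209 at 1 h and 28.9 and 15.1 at 5 h, a 5 h change of −4.05 or lower, since the knockout value is under the floor. Zfp395 had 197 and 209, then 157 and 150.0, then 5.32 and 23.6, a change of −3.29 or lower. Zfp362, the mouse counterpart of a fly and worm developmental regulator, had 938 and 999, then 702 and 504, then 112 and 81.9. All 3 were at their lowest at 5 h in both genotypes. Zfp106, an RNA-binding protein required by motor neurons, had 1325 and 1376, then 1043 and 1098, then 224 and 229, a change of −2.58 (SE 0.10) at 5 h. Its 2 other probe sets above 100 changed by −0.30 and −0.81 at 5 h. Zfp703, a co-repressor of the NET family, had 1035 and 1025, then 1448 and 2092, then 368 and 249. Its 1 h signals were the highest and its 1 h change of 0.76 (SE 0.28) did not pass the test, while the drop from 1 h to 5 h (−2.52) did. The same shape at a low level was seen for Zfp948, with 46.8 and 48.5, then 65.3 and 135, then 18.6 and 34.1.

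Few members rose. Zfp281, a Krüppel-type regulator that limits stem cell self-renewal programmes, had 511 and 594 at 0 h, 1357 and 1752 at 1 h and 1877 and 2805 at 5 h. It rose by 1.48 (SE 0.13) at 1 h and 2.06 (SE 0.13) at 5 h. Its other probe set above 100 gave 1.62 and 2.80. Zfp131, which carries a BTB/POZ domain, had 477 and 657, then 1900 and 1251, then 724 and 776, a peak at 1 h. Its change of 1.46 (SE 0.28) passed with limma's adjusted p at 0.0447, and in 9 of 15 alternative settings it did not (adjusted p 0.0510 to 0.158). At 5 h Zfp131 was 0.42 (SE 0.28) above 0 h and did not pass.

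The late rises came after a 1 h signal at or below the 0 h one. Zfp503 (NolZ1), the NET-family relative of Zfp703, had 39.4 and 11.3 at 0 h, 19.0 and 7.81 at 1 h and 195 and 199 at 5 h. The 2 low knockout values are under the floor, so its 5 h change is 2.88 or higher. While Zfp703 was at its lowest at 5 h, Zfp503 was at its highest. Zfp319 had 222 and 224, then 138 and 109, then 539.8 and 633, a change of 1.39 (SE 0.17) at 5 h and of 2.25 from 1 h. Zfp821 had 114 and 116, then 40.2 and 104, then 258 and 355, and its 1 h signal differed between genotypes. Zfp207 (BuGZ), a spindle checkpoint protein that stabilises Bub3, had 1483 and 1871, then 1324 and 1642, then 4418 and 3755. Its second probe set went the other way at 5 h, with 595 and 835 at 0 h and 361 and 427 at 5 h (−0.85), and the mean of the pair (0.22) did not pass. Zfp654 (0.45) and Zfp212 (0.65) were the other members higher at 5 h.

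**Figure D3:**
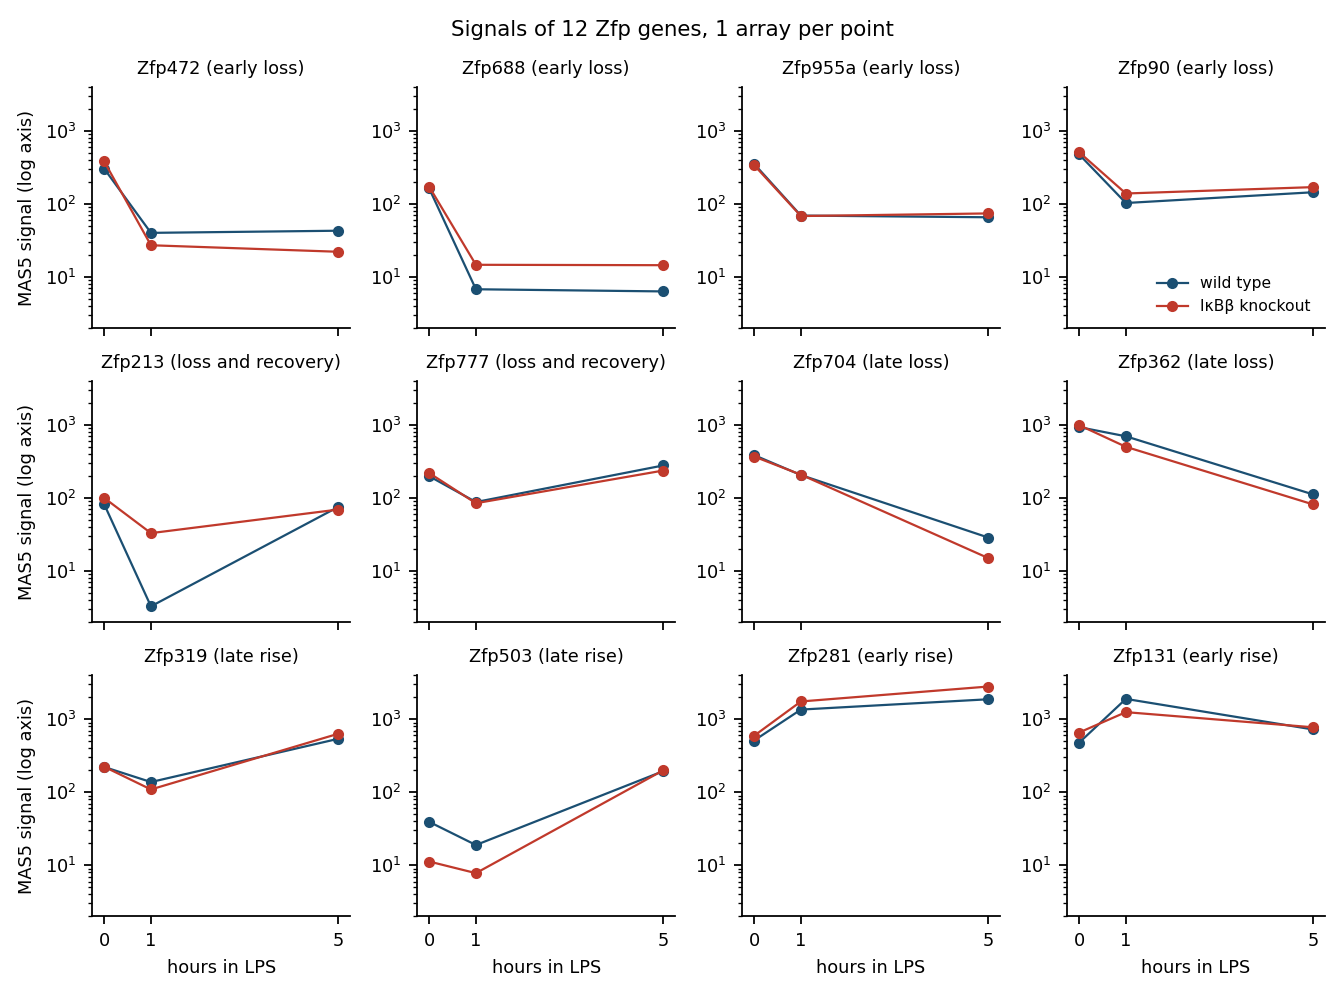
MAS5 signal (log y axis) of 12 Zfp genes against hours in LPS (x axis), with 1 array per point and lines joining the arrays of a genotype (wild type blue, IκBβ knockout red). Zfp472, Zfp688, Zfp955a and Zfp90 drop by 1 h and stay low, Zfp213 and Zfp777 come back by 5 h, Zfp704 and Zfp362 are lowest at 5 h, and Zfp319, Zfp503, Zfp281 and Zfp131 are highest at 5 h or, for Zfp131, at 1 h.

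Members with a known role outside DNA-bound repression were compared by role. Of 10 measured genes of RNA processing and translation, 0 were lower or higher at 1 h (median −0.27), and 9 were lower and 1 higher at 5 h (median −1.03). Of all genes, 7.14% were lower and 5.89% higher at 1 h, and 56.5% and 19.4% at 5 h. Zfp622, a ribosome biogenesis factor, had the highest 1 h change of them, with 3339 and 3356 at 0 h, 5010 and 4204 at 1 h and 1411 and 1282 at 5 h. The rise of 0.46 (SE 0.12) did not pass. Zfp346, which binds double-stranded RNA, had the lowest (−1.20, SE 0.34), with 177 and 161, then 107 and 50.9, then 73.9 and 86.5, and did not pass either. Zfp318, known to control IgM and IgD splicing in B cells, was at −0.21 at 1 h and −1.23 at 5 h, where the B-cell marker sum was also lowest. Of 3 ligases of ubiquitin or SUMO, 1 (Zfp598) also belongs to the list above. Zfp598, which marks collided ribosomes, was at −0.08 at 1 h, Zfp91 at −0.41 and Zfp451 at −0.43. All 3 were lower at 5 h, by log2 changes of −0.97, −0.89 and −1.33. For Zfp91 and Zfp451 another probe set had a 1 h change of the opposite sign, 0.49 in each.

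Of 9 measured members among broadly expressed transcription and chromatin factors, 2 were lower and 2 higher at 1 h (median −0.52), beside 7.14% and 5.89% of all genes at 1 h and 56.5% and 19.4% at 5 h. Zfp281 and Zfp410 were their extremes. At 5 h, 4 were lower and 1 higher, and Zfp518b, a partner of the histone methyltransferase G9a, was lowest of them (−1.08, SE 0.14). Of 4 developmental regulators (Zfp362, Zfp467, Zfp503, Zfp703), 1 was lower at 1 h, and 3 were lower and 1 higher at 5 h. Of 3 members that act in imprinting or retroelement silencing, 1 was lower at 1 h and 2 at 5 h. Zfp568, a repressor of a placental Igf2 transcript, had 118 and 101, then 61.7 and 67.7, then 115 and 119.9, a dip at 1 h (−0.76, SE 0.13) that was gone at 5 h (0.10). Zfp445, which maintains imprints, was at −0.39 and −0.85. Zfp932, a repressor of endogenous retroviruses, was at −0.65 at 1 h and −2.34 at 5 h. The 3 thus followed different courses.

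The genotype comparison was not used to choose the genes. In limma's fit no member differed between knockout and wild type at an adjusted p under 0.05, and 1 of 7352 genes did (0.0136% lower, 0 higher). No gene was called higher, although Xist was at 52.1 to 80.4 in wild type and 2149 to 5634 in knockout. The test can thus miss large differences, and the absence of calls does not show that members were alike. At an unadjusted p under 0.05, 2 members were lower and 4 higher, beside 353 and 281 of all genes. The lowest unadjusted p was that of Zfp518b (0.00558), whose adjusted p was 0.502. It was lower in knockout at 0 h, 1 h and 5 h, by log2 differences of −0.53, −0.41 and −0.80, with signals of 225, 128 and 117 against 156, 96.0 and 67.3. Genotype and sex cannot be told apart here. The median difference of the members was 0.08, 0.00 and 0.04 at the 3 times, with SDs over genes of 0.39, 0.44 and 0.45. For all genes the SDs were 0.34, 0.39 and 0.46.

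At a single time there is 1 array a side, so differences are values without a test. At 0 h 1 member was at least 2-fold lower and 1 at least 2-fold higher in knockout, beside 1.05% and 0.707% of all genes. The counts were 2 and 4 at 1 h (1.58% and 0.939%) and 3 and 2 at 5 h (2.75% and 1.56%). Among members above the floor on both sides and at 100 or more on the brighter side, the largest differences at 0 h were Zfp768 (−0.71), Zfp64 (−0.60) and Zfp518b on the lower side. On the higher side they were Zfp101 (0.95), the X-linked Zfp280c (0.70) and Zfp219 (0.52). At 1 h Zfp346 (−1.07), Zfp352 (−1.05) and Zfp771 (−0.82) were lower, and Zfp821 (1.37), Zfp746 (1.17) and Zfp948 (1.05) higher. At 5 h Zfp787 (−1.86), Zfp385a (−1.03) and Zfp219 (−0.88) were lower, and Zfp52 (0.84), Zfp281 (0.58) and Zfp821 (0.46) higher. Zfp787 had wild-type signals of 196, 125 and 113 against 157, 117 and 31.3, so its difference rests on the knockout 5 h array.

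The LPS change itself was alike between genotypes. Over the 99 members the wild-type and knockout changes had a Pearson r of 0.80 at 1 h, 0.88 at 5 h and 0.89 from 1 h to 5 h, beside 0.87, 0.95 and 0.92 over all genes. These are descriptions across genes that share arrays. The median 1 h change was −0.76 in each genotype, and at 5 h it was −1.12 in wild type and −1.11 in knockout. The SD of the difference between the genotypes' changes was 0.56 at 1 h, 0.59 at 5 h and 0.55 between them, against 0.41, 0.52 and 0.52 for all genes.

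**Figure D4:**
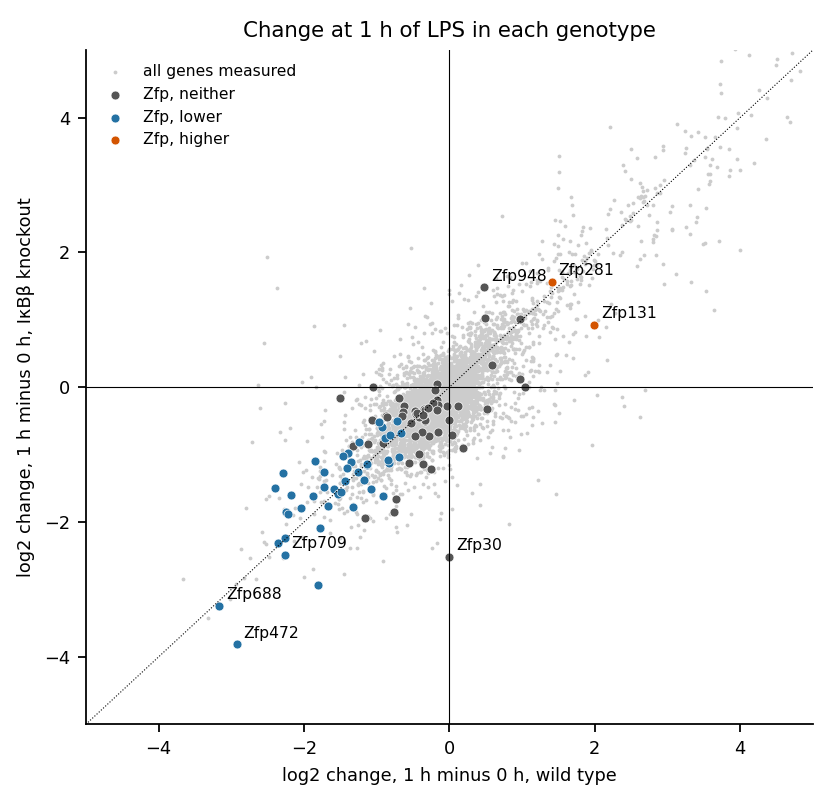
Log2 change at 1 h against 0 h in IκBβ knockout (y axis) against wild type (x axis), 1 array a point and side, for the 99 Zfp genes (dark grey, blue for lower, orange for higher in limma's fit) over all genes (light grey). Most Zfp genes lie below and left of 0 near the diagonal of equal change (r = 0.80 over the members). Zfp30 lies apart, its loss resting on a single signal above the floor. A few other genes lie outside the axes.

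Position in the genome was not used by the rule. All 99 members were matched to the RefSeq gene order. A member counts as clustered if another Zfp gene is among its 2 nearest coding genes on either side. Of 53 clustered members, 31 were lower at 1 h and 0 higher, with a median of −1.10. Of 46 members standing alone, 12 were lower and 2 higher, with a median of −0.47. Of all genes 7.14% were lower and 5.89% higher. Only neighbours named Zfp and a number were counted, so zinc finger genes under other names may lie beside members called alone. Early loss held 28 clustered and 11 lone members, late loss 11 and 14, and rise 0 and 6. Clustered members were also dimmer, with a median mean signal of 123 against 243, and 23 of them against 5 of the lone ones reached 100 at 0 h alone. Among the 50 brighter members the medians were −0.70 (20 clustered, 9 lower) and −0.42 (30 alone, 6 lower and 2 higher). Among the 49 dimmer ones they were −1.49 (33 clustered, 22 lower) and −0.71 (16 alone, 6 lower). Among those at 100 or more on an LPS array they were −0.69 (30) and −0.42 (41). The difference was not tested, since clustered genes are not independent of each other.

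Chromosomes 7, 8 and 17, which held the most members, had 45, of which 26 were lower at 1 h. Of the 54 others 17 were, beside 7.14% of all genes. On chromosome 8 alone 6 of 12 were lower, and on chromosome 6 this was 4 of 6. The share among all genes of each chromosome was not computed. On chromosome 17 Zfp472, Zfp955a, Zfp955b and Zfp101 were all deep early losses. Zfp53 (−1.56) and Zfp51 (−1.55, not past the test) stood beside Zfp52 (−0.60) and Zfp948 (0.98), neither of which passed. Neighbours thus did not always move together. On chromosome 6 Zfp212, Zfp777, Zfp746 and Zfp467 were each lower at 1 h, and Zfp282 (−0.74) did not pass. At 5 h they parted: Zfp212 (0.65) was above its 0 h level and Zfp777 (0.30) did not differ past the test, while Zfp746 (−1.32) and Zfp467 (−0.94) were lower. On chromosome 18 Zfp24 and Zfp35 recovered, and their neighbour Zfp397 was at −0.33 at 1 h and −0.76 at 5 h. On chromosome 7 Zfp787 (−0.54 at 1 h, not past the test) lay beside Zfp444 (−1.60).

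**Figure D5:**
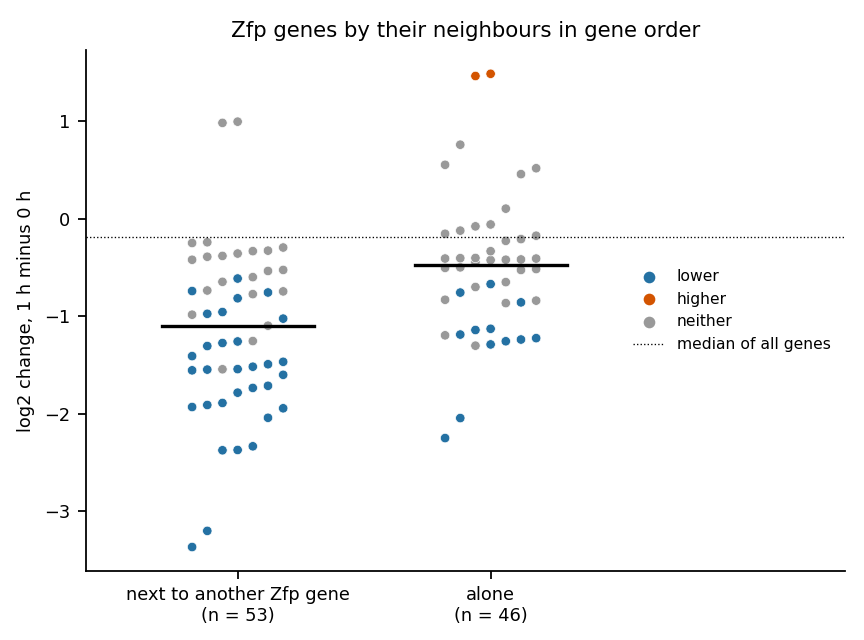
Log2 change at 1 h against 0 h (y axis, mean of the genotypes) for Zfp genes with another Zfp gene among the 2 nearest coding genes on a side (n = 53) and for those alone (n = 46). Points are genes, spread sideways for sight, bars are medians (−1.10 and −0.47), colours give limma's call and the dotted line is the median of all genes (−0.19). Both genes called higher stand alone.

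Where a member had several probe sets above 100, they mostly gave the same direction. This held for 34 of 36 pairs at 1 h and 34 of 36 at 5 h, in 28 genes. The exceptions were Zfp451 and Zfp91 at 1 h and Zfp207 and Zfp91 at 5 h. Pairs with deep losses were alike: Zfp790 had −1.74 and −1.79 at 1 h, Zfp467 −1.55 and −2.01, Zfp386 −1.26 and −1.10 and Zfp955b −1.93 and −2.37. Zfp84 was less even, at −1.52 and −0.76. The other probe sets hybridised to the same arrays and are not replicates. Of the members, 5 rest on probe sets of type _s_at and 5 of type _x_at, which can detect related transcripts.

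RefSeq promoters were found for 81 members, 99 promoters in all. A CCAAT box (CCAAT, either strand) stood in 53.5% of member promoters, 37.0% of promoters of the measured genes and 37.4% of all 32851. It was in 60.0% of the 35 promoters of early losses and in 60.9% of the 23 of late losses. An ETS core (CCGGAAG) stood in 31.4% of early-loss promoters, 18.2% of member promoters and 19.1% of those of measured genes. For the NRF1 core (GCGCATG) these shares were 20.0%, 9.09% and 7.33%. The NF-kB site was in 8.57% of early-loss promoters, 10.1% of member promoters and 10.8% of those measured. A CRE core (TGACG) was in 34.3% of member promoters and 32.2% of those measured. The interferon-stimulated response element (ISRE) was in 1 member promoter (1.01%), and in 3.34% of those measured. For the E-box (CACGTG) the shares were 7.07% and 10.6%, for the YY1 core (AAGATGG) 8.08% and 7.74%, and for the TATA box (TATAAA) 6.06% and 7.19%. Median GC content was 58.7% in member promoters and 60.7% in those measured. The shares describe letters in these windows and were not tested.

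Of 24 measured co-repressor and heterochromatin genes 1 was lower at 1 h (Morc3, −0.62) and 1 higher (Chd4, 0.71), with a median of −0.22. Morc3 was higher at 5 h than at 0 h (1.62). Trim28 had 1449 and 1255 at 0 h, 1028 and 983 at 1 h and 652 and 378 at 5 h. Its change was −0.42 (SE 0.21) at 1 h, which did not pass, and −1.44 at 5 h. Setdb1 had 475 and 527, then 457 and 447, then 190.0 and 169. Its 1 h change (−0.15, SE 0.13) did not pass, and it was lower at 5 h (−1.48). At 5 h 12 of the 24 were lower and 4 higher (median −0.39). The shares of all genes were 7.14% and 5.89% at 1 h and 56.5% and 19.4% at 5 h, near those of this list. The lowest was the DNA methyltransferase Dnmt1 (−2.16) and the highest the histone chaperone Daxx (3.10), from 811 and 817 at 0 h to 6811 and 7196.

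Other families named for a zinc finger or a related domain gave the scale for the 1 h change, at which 7.14% of all genes were lower and 5.89% higher. Of 8 measured Zscan or Zkscan genes, whose proteins also carry C2H2 fingers, 3 were lower and 0 higher, with a median of −0.99. Of 16 Zbtb genes, BTB-domain C2H2 proteins, 3 were lower and 1 higher (median −0.45). Of 8 Zc3h genes, which encode CCCH fingers that mostly bind RNA, 0 were lower and 2 higher (median −0.14). The 12 Zdhhc palmitoyltransferases had 1 lower (median −0.43) and the 26 Trim genes 6 lower and 1 higher (−0.38). The 41 Rnf RING-finger genes had 3 lower and 3 higher (−0.30), or 7.32% each way, near the shares of all genes. At 5 h the medians were −1.10 for Zscan or Zkscan, −0.93 for Zbtb, −0.35 for Zc3h, −1.11 for Zdhhc, −0.54 for Rnf and −0.79 for Trim genes. At that time Zfp genes (−1.04) lay within the range of these families, and at 1 h (−0.76) all but the Zscan or Zkscan genes were nearer to the median of all genes. These differences between families were not tested.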

How the data were processed

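MAS5 signals (intensity on a linear scale, as deposited) of 22690 probe sets on 6 Mouse Genome 430A 2.0 arrays were computed by the authors, per the submitters' processing notes. The sources used here do not give the MAS5 version or the scaling target. Trimmed means without the highest and lowest 2% were 500.2 to 500.3. The annotation gave 1 symbol to 20393 probe sets, several to 691 and none to 1606, controls included. A floor of 18.2 (25th percentile over all arrays) replaced lower signals before log2 was taken. Genotype and time were fitted as additive terms in limma 3.58.1 (R 4.3.3) on 7352 genes, with 2 residual degrees of freedom and a prior of 2.28. A call means a Benjamini-Hochberg adjusted p under 0.05 over these genes. Nothing in the labels says whether arrays came from separate animals or cultures, so p-values measure only the spread between these arrays. The number of arrays limits the precision.

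The members, lists, settings and rules were chosen with earlier results of these data known. Named genes were members called and at least 2-fold lower in both genotypes at 1 h, the rises at 1 h, the 10 largest falls and 6 largest rises at 5 h, the 6 largest called changes each way from 1 h to 5 h, the 3 largest genotype differences each way at each time, the 3 genes on each side of the signal threshold, the extremes of each role list, Zfp472, Zfp688, Trim28, Setdb1 and the extreme co-repressors. Genes named beyond these, as neighbours, within small lists or for a probe set, were chosen after their values were seen. Alternatives were another floor, a pseudocount of 16, quantile normalization, median centring, other signal filters, the mean of a gene's probe sets, and each array left out in turn. Promoters came from RefSeq (GRCm38.p6). Protein features were not analysed here.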

Additional observations from a re-analysis of the deposited data

Results flagged for a closer look

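For 3 Zfp genes the LPS change against 0 h had opposite signs in the genotypes and differed between them by at least 1 log2 unit. Other members had opposite signs against 0 h with smaller differences. Changes from 1 h to 5 h are left out of this count. There Zfp346, for example, changed by −0.53 in wild type and 0.77 in knockout. There was 1 array for each genotype and time, so the difference was not tested. Zfp352 at 1 h changed by 1.03 in wild type and about 0 (−0.00) in knockout, a difference of −1.04, and its only signal above 100 was the wild-type 1 h value of 122. Zfp771 at 1 h changed by 0.19 in wild type and −0.90 in knockout, a difference of −1.09, with signals of 97.0 and 110 against 117 and 62.4. Zfp219 at 5 h changed by 0.43 in wild type and −0.97 in knockout, a difference of −1.40, with signals of 97.8 and 132 against 140.0 and 71.4.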

How the results depend on the processing

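Genotype is a term of the fit, so LPS changes are already compared within genotype. No paired analysis was possible because the labels carry no replicate numbers, beyond this pairing by genotype. With no filter on low signals (12394 genes), 9 members were lower and 0 higher at 1 h, beside 0.831% and 1.19% of all genes. From 1 h to 5 h, 11 were higher, beside 9.28%. The 2 rises at 1 h became 1 with the lower floor, 1 with the array-median filter and 4 with median centring. Of all genes, 5.37%, 5.42% and 7.86% were higher in these settings. Under quantile normalization, 42 of 99 members were lower and 12 higher at 5 h, beside 42.9% and 25.4% of all genes. The share of members lower was thus near that of all genes. From 1 h to 5 h, 18 were lower and 34 higher, beside 36% and 24.1%. With median centring, 38 were lower and 18 higher at 5 h, beside 28.8% and 37.9%. From 1 h to 5 h, 19 were lower and 42 higher, beside 25.6% and 36.1%. Under quantile normalization and median centring, recoveries numbered 11 and 10, late losses 15 and 12, and rises 10 and 11. The shares of all genes in these courses are not given here.

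The member median relative to all genes at 1 h was −0.50 with the pseudocount, −0.51 with quantile normalization, −0.47 at a minimum of 200, −0.65 with no filter and −0.48 at a mean signal of 100, the last chosen after seeing the data. At 5 h it was −0.36, −0.14, −0.49 and −0.78 under the first 4 of these. From 1 h to 5 h it was 0.27, 0.38, 0.052, −0.015 and 0.13 in the same order, 0.20 with median centring, 0.23 with the array-median filter and 0.31 with the mean of probe sets. It thus turned sign with no filter, where the median of all genes was −0.16 in place of −0.42. The cause of these shifts was not tested.

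With each array left out, the members lower at 1 h numbered 7 to 39 and higher 0 to 2, those lower from 1 h to 5 h 23 to 35, and those higher 12 to 16. At 5 h, 59 to 68 were lower and 5 to 7 higher. The relative medians ran from −0.64 to −0.50 at 1 h, −0.49 to −0.41 at 5 h and 0.19 to 0.29 from 1 h to 5 h. With an array left out, the lone array of its time is assumed to vary like the others. Changes of named genes kept their direction in all 875 refits and missed the threshold in 143. Symbols updated through RefSeq left the 99 members as they were. No genotype call arose among the members in any setting, by a test that can miss large differences.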
